A study of Mus musculus with 4 samples.

Results

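The genes described here encode the proteins that tie focal adhesions to the actin cytoskeleton and the proteins that build, cut and bundle actin filaments. A list of 58 such genes was used, 23 adhesion linkers and 35 actin regulators, and its members were found on the arrays by gene name. Of the 58 genes, 57 had at least 1 probe under the listed name, with 113 probes and 131 spots on each array, out of 14728 genes on the array whose names are current RefSeq symbols and 41174 probes in all. Ezr, encoding ezrin, had no probe under its current name and is given apart, under the older name Vil2, and Arpc2 had a usable value on 1 array only, which left 56 members tested.

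Each of 4 Agilent 2-color arrays was hybridised with RNA of STMN1-/- mouse embryo fibroblasts (MEFs) in one dye and RNA of STMN1+/+ MEFs in the other. Both genotypes were C57BL/6 embryonic fibroblasts kept in culture. The STMN1-/- cells carry a neomycin cassette in place of a part of the Stmn1 gene, which encodes stathmin, a protein that destabilizes microtubules, and the STMN1+/+ cells are wild type at that gene. The cells were derived from individual embryos of heterozygous matings, and it is not stated which embryo or RNA extract each array held. The p-values therefore reflect array to array scatter, part or all of which may be technical, and the number of arrays limits the precision.

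In a focal adhesion, integrins hold the extracellular matrix on the outside of the cell, while talins, vinculin, tensins and the complex of integrin-linked kinase with PINCH and parvin proteins hold actin on the inside. Kinases and adaptors such as FAK, Src, paxillin and p130Cas pass on signals from these sites, and zyxin and the PDZ-LIM proteins sit on the actin bundles that end there. Actin itself is held as monomers by profilin and thymosins, depolymerized by cofilins, branched by the Arp2/3 complex, and bundled by actinins, filamins and fascin. Fibroblasts use this machinery to spread, to pull on the matrix and to migrate.

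Each value below is the log2 ratio of STMN1-/- over STMN1+/+ processed signals, so that a negative value means a lower signal in STMN1-/- MEFs. STMN1-/- RNA was labelled with Cy3 on arrays 1 and 2 and with Cy5 on arrays 3 and 4. A gene is represented by its brightest tested probe and was called higher or lower at an adjusted p below 0.05 from limma, adjusted over 27648 probes with a value on at least 2 arrays. Errors are standard errors (SE) from limma, with 4 arrays where no n is given. Fewer cells of a type and less RNA per cell cannot be told apart in such bulk RNA.

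The targeted gene was lower on both of its probes, to unequal extents. The Stmn1 probe at chr4:133849207-133849266 of mouse build mm7 was at -2.16 (SE 0.06, adjusted p = 0.000602, limma), and the brighter probe at chr4:133852044-133852103 was at -0.39 (SE 0.07, adjusted p = 0.0181, limma). The study calls the design of the array's Stmn1 probe flawed and describes its cross-match to another site in the genome. Citing earlier work, it reports that STMN1-/- MEFs lack the mRNA by qRT-PCR and the protein by western blot. Which probe the cross-match concerns, and which of the 2 probes lies in the deleted part, was not analysed here. The correlation of log2 ratios over all probes, described here without a test because probes are not replicates, was 0.689 and 0.703 for pairs of arrays with the same labelling and 0.445 to 0.489 for pairs with opposite labelling. Of the marker genes tested, 9 of 11 fibroblast markers were higher and 1 lower in STMN1-/- MEFs, and all 11 were well above background on every array in both genotypes. All 8 epithelial markers tested were lower, with a summed signal of 56995 to 67579 in STMN1-/- and 87300 to 98788 in STMN1+/+ MEFs, and Cdh1, the epithelial cadherin, did not stand well above background in STMN1-/- MEFs on any array. All 7 neural and glial markers tested were lower, with a summed signal of 6814 to 9199 in STMN1-/- and 15854 to 20316 in STMN1+/+ MEFs. Of the other markers, 3 of 8 smooth muscle and 5 of 8 striated muscle markers were higher and 0 lower, 3 of 11 macrophage and leukocyte markers were higher and 2 lower, and 1 of 4 endothelial markers was higher and 1 lower. The part of these other cell types in the values of the adhesion and actin genes was not tested.

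In STMN1-/- MEFs, 13 of the 56 members tested were called lower and 4 higher. The largest called changes were lower signals of the PDZ-LIM gene Pdlim5, called under every alternative with a test, and of the parvin gene Parvb, whose size and call depended on the processing. Among all 11363 genes tested in the same way, 12.5% were called lower and 13.8% higher. The adhesion linkers had 8 of 23 members lower (34.8%) and 3 higher (13.0%), and the actin regulators had 5 of 33 members lower (15.2%) and 1 higher (3.03%). Most changes were small. The median absolute log2 ratio was 0.16 over the linkers and 0.17 over the regulators, against 0.18 over all genes, and 1 of the 56 members changed by at least 2 fold (1.79%), against 3.86% of all genes, and this member, Parvb, did not reach 2 fold with normexp background correction and loess (0 of 56 members). Under that processing 8 of the 17 calls were lost, those of Bcar1, Capg, Evl, Lpp, Parvb, Pdlim1, Ptk2b and Tns1. The median probe signal, which bears on the precision and is no measure of RNA level between genes, was 29655 for the linkers and 30007 for the regulators, against 4238 for all genes. The counts depended on every array: without any 1 array, 1 to 3 linkers and 1 or 2 regulators were called lower, and 0 or 1 linker and 0 regulators higher, while 5.84% to 6.63% of all genes were then called lower and 7.07% to 7.99% higher. Of the 17 called members, 2 (Pdlim5 and Cfl2) passed without any of the arrays, 3 (Zyx, Parvb and Lims1) passed without some of them, and 12 failed without each of them. All 17 had the same sign on every array with a value, which selection by a test on the same values makes likely. Of the 52 members measured on 4 arrays, called or not, 31 (59.6%) had the same sign on all of them, against 51.2% of all genes.

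**Figure D1:**
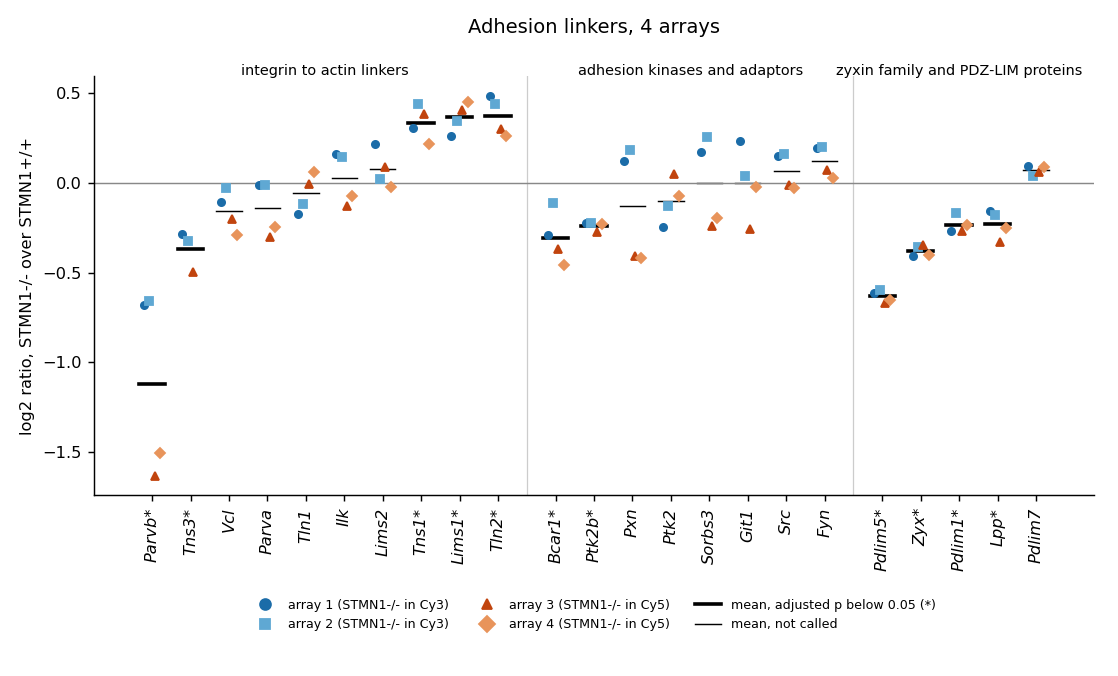
Log2 ratio of STMN1-/- over STMN1+/+ signal (vertical axis) of the 23 adhesion linkers, by subgroup, on each of the 4 arrays; points are arrays, bars are means, and thick bars with an asterisk have an adjusted p below 0.05 (limma). Parvb and Pdlim5 lie lowest, at means of -1.12 (-0.49 with normexp and loess) and -0.63, and Tns1, Lims1 and Tln2 lie highest, at 0.34 to 0.37.

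Among the 10 integrin to actin linkers, 3 were higher and 2 lower, and the tensins were called in both directions. Parvb encodes β-parvin, an actin-binding partner of integrin-linked kinase. Its brighter probe had log2 ratios of -0.68, -0.66, -1.63 and -1.50 on arrays 1 to 4. All 4 arrays were lower in STMN1-/- MEFs, and arrays 3 and 4 lay far below arrays 1 and 2, in step with the dye orientation. The mean was -1.12 (SE 0.21), a 2.17 fold lower signal (adjusted p = 0.0206, limma). With normexp background correction and loess it was -0.49 (adjusted p = 0.0902, limma), behind Pdlim5 at -0.53, and the methods' t-test did not call it either (adjusted p = 0.0974 after Benjamini-Hochberg adjustment). The gene was dim, with mean signals of 437 in STMN1-/- and 976 in STMN1+/+ MEFs. Without array 3 or array 4 the call was lost, with adjusted p-values of 0.0614 and 0.0732 (limma). The dimmer Parvb probe, which spans 239 bases of the genome at chr15:84395081-84395319 (mm7, plus strand) and so must cross an intron, stood well above background on 0 of 4 arrays in STMN1-/- MEFs and on all 4 in STMN1+/+ MEFs. Its signals averaged 133 in STMN1-/- and 236 in STMN1+/+ MEFs, with a mean log2 ratio of -0.83 (adjusted p = 0.0299, limma). A bound without a test sets each STMN1-/- signal at no less than the lowest signal well above background on its array. These lowest signals were 110.6 to 140.1. By this bound the probe was 1.74 fold higher in STMN1+/+ MEFs over the 4 arrays together. The value allows for no noise and is no minimum for a single array. Without the bound, the log2 ratios of the probe were -0.85, -0.26, -0.86 and -1.33 on arrays 1 to 4. Its sequence is given because it ties this measurement to spliced Parvb RNA.
Parvb, dimmer probe: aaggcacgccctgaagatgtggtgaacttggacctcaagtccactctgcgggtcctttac

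None of the other genes for the complex of integrin-linked kinase with PINCH and parvin proteins was called lower. Parva, the paralog of Parvb, encodes α-parvin and had a mean of -0.14 (SE 0.08, adjusted p = 0.253, limma). Its second probe, with usable spots on arrays 1 and 2 alone, had 0.32. Ilk, encoding integrin-linked kinase, had 0.03 (SE 0.08, adjusted p = 0.842, limma). For Lims1, encoding PINCH1, which binds integrin-linked kinase in the same complex, the brightest probe had 0.26, 0.34, 0.41 and 0.45 on arrays 1 to 4. It was higher in STMN1-/- MEFs on 4 of 4 arrays, with a mean of 0.37 (SE 0.06, adjusted p = 0.0150, limma), a 1.29 fold change. Its paralog Lims2, encoding PINCH2, had a mean of 0.08 (adjusted p = 0.451, limma) and was higher on 3 of 4 arrays. The call for Lims1 rests on this probe. A second probe for the same transcript, 609 bases further along chromosome 10, had a mean of 0.05 (adjusted p = 0.601, limma), and the difference between the probes was 0.27 to 0.40 on the 4 arrays. The brightest probe lies at chr10:57939710-57939769 (mm7, plus strand), and its sequence is given to show where the reading frame it carries ends, with the stop codon in capitals at base 52.
Lims1, brightest probe: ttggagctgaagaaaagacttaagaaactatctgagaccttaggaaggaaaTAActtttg

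Tln2 and Tns1 were the other linkers called higher. Tln2, encoding talin 2, had a mean of 0.37 (SE 0.07, 1.29 fold, adjusted p = 0.0182, limma), and its 3 probes gave 0.36 to 0.38, with 2 of them called. Its paralog Tln1, the talin that fibroblasts mainly use, had -0.06 (adjusted p = 0.574, limma). Tns1, encoding tensin 1, had 0.34 (SE 0.06, 1.26 fold, adjusted p = 0.0219, limma) on its brightest probe. The next brightest Tns1 probe had a mean of -0.0013, and the difference between these probes was 0.22 to 0.44 on the 4 arrays. Tns3, encoding tensin 3, was lower, with -0.28, -0.33 and -0.50 on arrays 1 to 3 and no usable spot on array 4 (mean -0.37, SE 0.08, n = 3, adjusted p = 0.0444, limma). With Cy3 on 2 of these arrays and Cy5 on 1, a dye effect does not cancel in that mean. Vcl, encoding vinculin, had the largest change among the linkers that were not called, at -0.16 (SE 0.07, adjusted p = 0.164, limma).

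Among the adhesion kinases and adaptors, 2 of 8 genes were lower and 0 higher. Bcar1, encoding the scaffold p130Cas, had log2 ratios of -0.29, -0.11, -0.37 and -0.46 on arrays 1 to 4. All arrays were lower, array 2 least so. The mean of -0.31 (SE 0.08, 1.24 fold lower) passed at an adjusted p of 0.0450 (limma). Ptk2b, encoding the kinase Pyk2, had -0.22, -0.22, -0.28 and -0.23, closer together than those of any other called member on 4 arrays, with a mean of -0.24 (SE 0.05, 1.18 fold lower, adjusted p = 0.0326, limma). With normexp background correction and loess its mean was -0.12 and it was not called (adjusted p = 0.132, limma). Its paralog Ptk2, encoding FAK, had -0.10 (adjusted p = 0.361, limma). The Src family kinase genes were printed as 10 spots on each array, so that the spread within an array can be seen. Fyn had means of 0.20, 0.20, 0.07 and 0.03 over 6 to 10 usable spots per array, with a standard deviation (SD) of 0.09 to 0.12 between spots. Src had 0.15, 0.16, -0.01 and -0.03, with an SD of 0.04 to 0.07. For both kinases, arrays of the same dye orientation differed by less than the spread between spots, and neither gene was called (adjusted p = 0.209 for Fyn and 0.510 for Src, limma).

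Of the 5 zyxin family and PDZ-LIM genes, 4 were lower and 0 higher, the largest share called in any subgroup of more than 3 genes (80.0%, against 12.5% of all genes). Of these 4 calls, those of Lpp and Pdlim1 were lost with normexp background correction and loess. Of such genes outside the member list, Pdlim2 and Ajuba were lower and Pdlim4 was higher. Trip6, Limd1, Pdlim3 and Ldb3 had 0.16, 0.15, 0.20 and 0.10 and were not called. Pdlim5 encodes ENH, a scaffold with a PDZ domain that binds actinin and LIM domains that bind protein kinases. Its signals on arrays 1 to 4 were 9181, 8605, 8503 and 10077 in STMN1-/- MEFs and 14052, 12992, 13544 and 15814 in STMN1+/+ MEFs. The groups did not overlap, which was also so for members with smaller changes, such as Zyx. The share of all genes without overlap was not computed. The log2 ratios were -0.61, -0.59, -0.67 and -0.65, with a mean of -0.63 (SE 0.05), a 1.55 fold lower signal (adjusted p = 0.0025, limma), and the call held under every alternative with a test, with log2 ratios of -0.65 to -0.46. Zyx, encoding zyxin, a LIM protein of focal adhesions and stress fibers, had -0.41, -0.36, -0.35 and -0.40. These values lay close together, and the mean was -0.38 (SE 0.05, 1.30 fold lower, adjusted p = 0.00968, limma). Pdlim1, encoding the actinin-binding protein CLP36, had -0.23 (SE 0.05, adjusted p = 0.0374, limma). Lpp, encoding the zyxin relative LPP, had -0.23 (SE 0.06, adjusted p = 0.0496, limma) on its brightest tested probe, while its 4 other tested probes had -0.27 to 0.04 and none was called. Pdlim7, encoding Enigma, was the subgroup's exception at 0.07 (adjusted p = 0.374, limma), with 0.04 to 0.10 on the 4 arrays.

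The 5 Pdlim5 probes fell into 2 sets by their mean change. The files assign 2 of them to transcript NM_019808 and 3 to NM_019809, and the sets lie 56.0 kb apart on the minus strand of chromosome 3, the first further along the gene. Long forms of the protein carry LIM domains at the end and short forms lack them, as is known for this gene. Which form each probe detects was not analysed here. The sequences of 4 of the probes, each with at least 1 reading frame free of stop codons, are shown because the size of the change differs between them. They lie at chr3:142137912-142140254, where 60 bases span 2343 bases of the genome and so cross an intron, and at chr3:142137847-142137906, chr3:142205326-142205385 and chr3:142197349-142197408 (mm7).
Pdlim5, NM_019808, brightest probe: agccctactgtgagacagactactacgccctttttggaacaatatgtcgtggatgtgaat
Pdlim5, NM_019808, second probe: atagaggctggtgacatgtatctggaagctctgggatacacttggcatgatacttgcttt
Pdlim5, NM_019809, brightest probe: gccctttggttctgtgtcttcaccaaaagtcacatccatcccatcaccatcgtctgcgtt
Pdlim5, NM_019809, second probe: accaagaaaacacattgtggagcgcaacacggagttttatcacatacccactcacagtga

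The 2 NM_019808 probes of Pdlim5 had means of -0.63 and -0.59 at signals of 11596 and 11125. The 3 NM_019809 probes had means of -0.25, -0.33 and -0.34 at signals of 1313, 1286 and 1027. All 5 means were lower in STMN1-/- MEFs, and 4 were called, the exception being the second NM_019809 probe (adjusted p = 0.141, limma). That probe had -0.25, 0.09, -0.62 and -0.52 on arrays 1 to 4. It was thus above 0 on array 2 and near the NM_019808 probes on arrays 3 and 4. The mean of the NM_019808 probes lay below that of the NM_019809 probes by 0.35, 0.34, 0.30 and 0.23 on arrays 1 to 4, a mean difference of -0.30 ± 0.05 (SD, n = 4). The difference had the same sign on every array. The NM_019809 probes were also the dimmer ones, and the part of signal level in the difference was not tested.

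**Figure D2:**
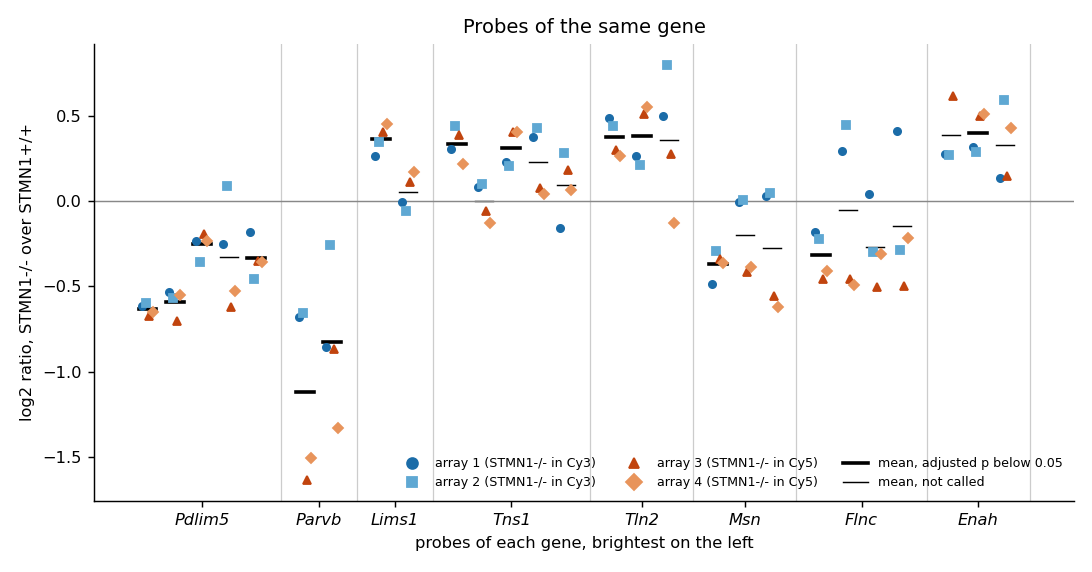
Log2 ratio of STMN1-/- over STMN1+/+ signal (vertical axis) for every tested probe of 8 member genes, brightest probe on the left within each gene; points are the 4 arrays, bars are means, and thick bars have an adjusted p below 0.05 (limma). The Pdlim5 probes all lie below 0 on average, the left pair lowest, while Lims1 and Tns1 each have a probe near 0 beside a called one.

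Probes of the same gene mostly gave the same sign. Of 30 members with several tested probes, 25 had all their means on the same side of 0, the exceptions being Flna, Lpp, Parva, Src and Tns1. No member had probes called in both directions. Enah, encoding the actin elongation factor Mena, was called on its second probe only: the brightest had 0.39 over 3 arrays (SE 0.10, adjusted p = 0.0704, limma) and the second, nearly as bright, 0.40 over 4 arrays (SE 0.07, adjusted p = 0.0160, limma), so that Enah stands outside the counts by the rule of the brightest probe. For Msn, the brightest probe was called at -0.37 and the others, at -0.20 and -0.28, were not. Those other probes had -0.01 to 0.05 on arrays 1 and 2 and -0.62 to -0.39 on arrays 3 and 4. Their lower means thus came from 1 dye orientation.

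**Figure D3:**
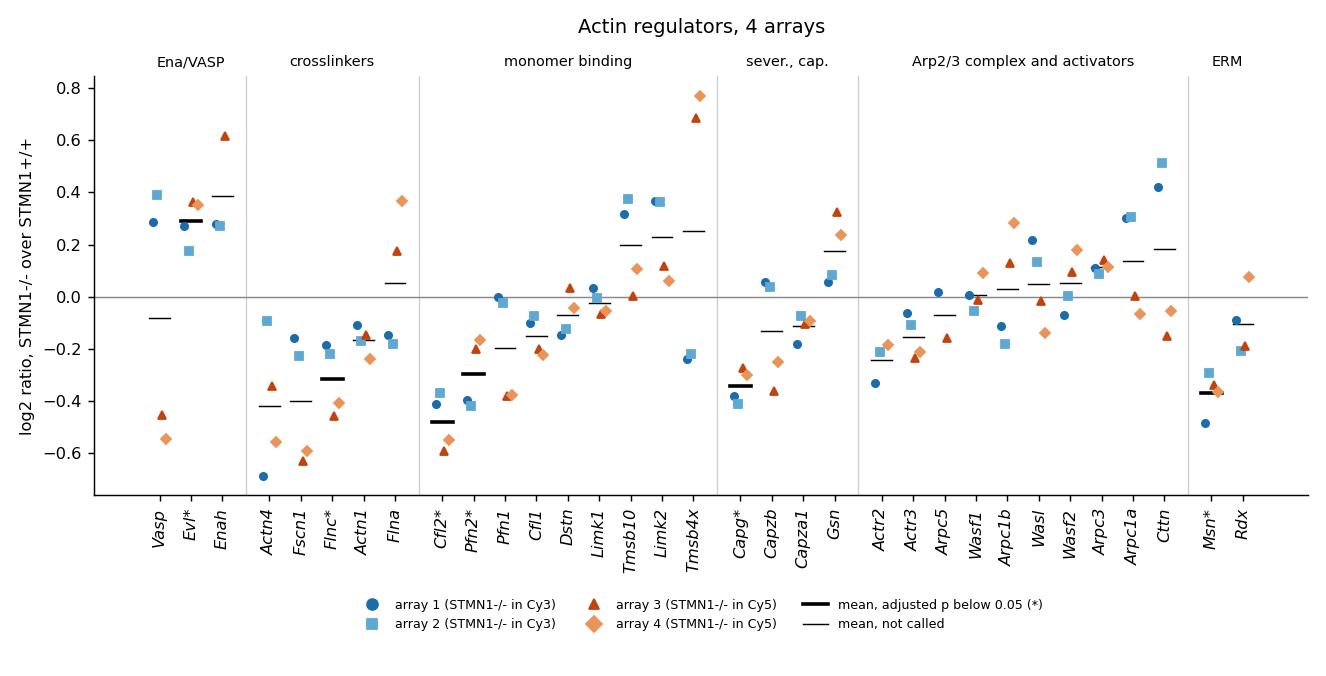
Log2 ratio of STMN1-/- over STMN1+/+ signal (vertical axis) of the 33 tested actin regulators, by subgroup, on each of the 4 arrays; points are arrays, bars are means, and thick bars with an asterisk have an adjusted p below 0.05 (limma). Evl is the gene called higher, at 0.29, and the 5 called lower lie between -0.48 and -0.30; Vasp and Tmsb4x show arrays on both sides of 0.

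Among the actin regulators, the Ena/VASP proteins, which extend filaments at their growing ends, had the call in the upward direction. Evl had 0.27, 0.18, 0.36 and 0.35 on arrays 1 to 4, all above 0, with a mean of 0.29 (SE 0.06, 1.22 fold higher, adjusted p = 0.0290, limma). Vasp, the third member of the family, had 0.29, 0.39, -0.45 and -0.55, so that arrays of different dye orientation lay on opposite sides of 0 (mean -0.08, SE 0.19, adjusted p = 0.801, limma). A second Vasp probe split in the same way, with 0.29, 0.31, -0.57 and -0.61.

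The crosslinkers lay mostly below 0. Flnc, the filamin best known from muscle, had -0.18, -0.22, -0.46 and -0.41 and was lower on 4 of 4 arrays (mean -0.32, SE 0.07, 1.25 fold lower, adjusted p = 0.0366, limma). Its other probes had means of -0.27 to -0.05 and were not called. The second brightest Flnc probe was split by dye orientation, with 0.29, 0.45, -0.46 and -0.49 on arrays 1 to 4. With the median over the probes of a gene the call for Flnc was lost (adjusted p = 0.218, limma). Flna, the widely expressed filamin, had 0.05 (adjusted p = 0.774, limma). Actn4, encoding α-actinin 4, had the largest change among the regulators that were not called, with -0.69, -0.09, -0.34 and -0.56 (mean -0.42, SE 0.11, adjusted p = 0.0544, limma). Fscn1, encoding the filopodial bundler fascin, had a mean of -0.40 (SE 0.11, adjusted p = 0.0530, limma). Both lay just outside the threshold, and Lpp, at 0.0496, lay just inside it.

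Cfl2 was the regulator with the largest called change. It encodes the cofilin best known from muscle, which severs and depolymerizes filaments. Its signals on arrays 1 to 4 were 6404, 7734, 6833 and 6861 in STMN1-/- MEFs and 8517, 9996, 10310 and 10048 in STMN1+/+ MEFs. The genotypes did not overlap, as for Pdlim5 and Zyx. The log2 ratios were -0.41, -0.37, -0.59 and -0.55 (mean -0.48, SE 0.07, adjusted p = 0.00929, limma), and the call held under every alternative with a test. Its paralog Cfl1, the main cofilin outside muscle, had -0.15 (adjusted p = 0.132, limma), and Dstn, encoding the related destrin, -0.07 (adjusted p = 0.454, limma). Pfn2, encoding profilin 2, a monomer-binding protein, was lower at -0.30 (SE 0.07, adjusted p = 0.0416, limma), and its second probe had -0.29 (adjusted p = 0.0596, limma). Its paralog Pfn1 had -0.20 (adjusted p = 0.207, limma).

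Of the severing and capping proteins, Capg, which caps the growing ends of filaments, had -0.38, -0.41, -0.27 and -0.30. It was lower on every array (mean -0.34, SE 0.06, 1.27 fold lower, adjusted p = 0.0155, limma). The related severing protein gelsolin, encoded by Gsn, had 0.17 (adjusted p = 0.143, limma), with 0.06 to 0.32 on the 4 arrays. In the Arp2/3 complex and its activators, 0 of 10 tested genes were called (2 had an unadjusted p below 0.05 by limma), with log2 ratios of -0.24 for Actr2 to 0.18 for Cttn, and the median was 0.04. The methods' t-test, with Benjamini-Hochberg adjustment, called 1 of them, Arpc3, at 0.11. Arpc2 had a usable spot on 1 array and was not tested.

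The ERM proteins link actin to the plasma membrane. Msn, encoding moesin, had -0.48, -0.29, -0.34 and -0.36 on its brightest probe, all below 0 (mean -0.37, SE 0.06, 1.29 fold lower, adjusted p = 0.0147, limma), and Rdx, encoding radixin, had -0.10 (adjusted p = 0.356, limma). Ezr, encoding ezrin and measured by the probe named Vil2, had signals that averaged 33716 in STMN1-/- and 64497 in STMN1+/+ MEFs. Its log2 ratios were -1.04, -1.01, -0.85 and -0.85. The arrays lay close together at a mean of -0.94 (SE 0.06, 1.92 fold lower, adjusted p = 0.00156, limma), and without any 1 array the adjusted p stayed between 0.0122 and 0.0136 (limma). Ezrin is the ERM protein typical of epithelial cells, and all 8 epithelial markers tested were lower in STMN1-/- MEFs as well. The 7 of them above background on every array had log2 ratios of -1.56 to -0.25, and Cdh1, below background in STMN1-/- MEFs, was at least 3.62 fold higher in STMN1+/+ MEFs by the same bound as for Parvb. Their part in the value of Ezr was not tested.

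**Figure D4:**
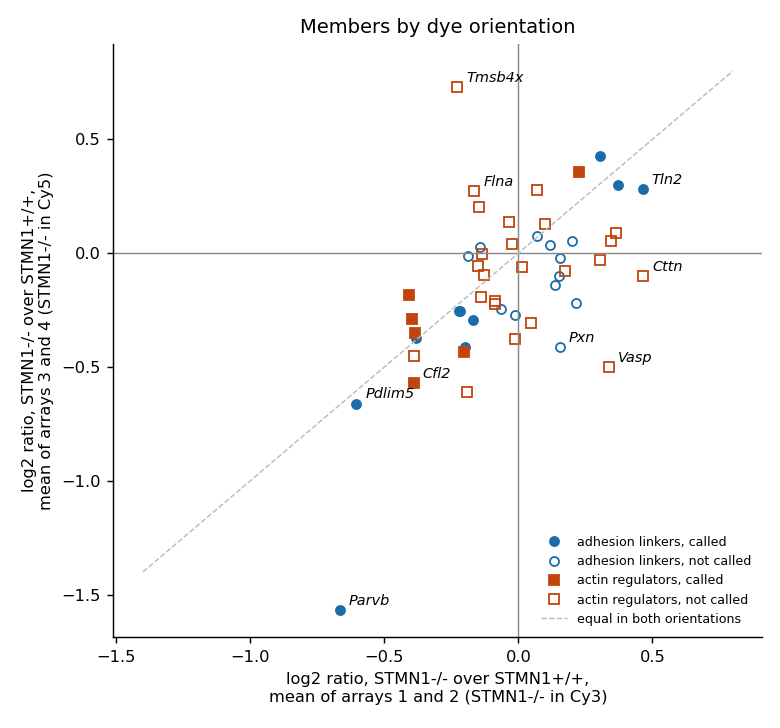
Mean log2 ratio of STMN1-/- over STMN1+/+ signal on arrays 3 and 4, with STMN1-/- in Cy5 (vertical axis), against the mean on arrays 1 and 2, with STMN1-/- in Cy3 (horizontal axis), for the 52 members with 4 arrays; circles are adhesion linkers, squares actin regulators, and filled symbols are called. Called genes lie at the lower left and upper right, while Vasp, Pxn, Cttn, Tmsb4x and Flna lie at the upper left or lower right, where the sign depends on the dye.

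For part of the members, arrays of opposite dye orientation lay on opposite sides of 0. Of the 52 members measured on 4 arrays, 12 (23.1%) had both arrays of one orientation above 0 and both of the other below 0, against 18.8% of all genes measured on 4 arrays. The widest split was that of Tmsb4x, encoding thymosin β4, the main store of actin monomers, with a mean of -0.23 in the Cy3 orientation and 0.73 in the Cy5 orientation. Vasp had 0.34 in the Cy3 orientation and -0.50 in the Cy5 orientation, and Cttn, encoding cortactin, had 0.47 in the Cy3 orientation and -0.10 in the Cy5 orientation. Pxn, encoding paxillin, had 0.15 in the Cy3 orientation and -0.41 in the Cy5 orientation. None of these 12 was called, which is likely for any gene with values on both sides of 0. When the dye effect was fitted as a second coefficient, the mean of a gene with 4 arrays stayed as it was, and the SE was smaller for 51 of the 52 members and larger for Actn4 (0.12, against 0.11 without the coefficient). Under that fit 30 of the 56 members were called, 13 linkers and 17 regulators, with 20.5% of all genes lower and 22.2% higher. The 13 added members included Fscn1 (adjusted p = 0.00643, limma), Tmsb4x (0.25, adjusted p = 0.0153, limma), Limk2, encoding a kinase of cofilin (0.23, adjusted p = 0.0166, limma), and Enah (0.44, adjusted p = 0.0171, limma).

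**Figure D5:**
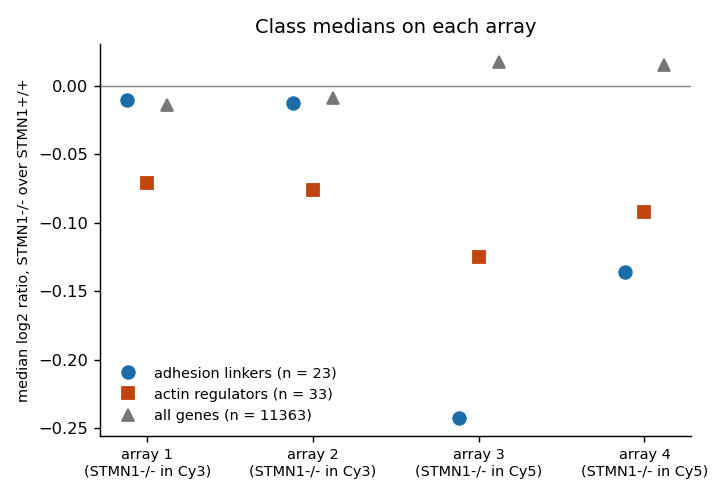
Median log2 ratio of STMN1-/- over STMN1+/+ signal (vertical axis) of the adhesion linkers, the actin regulators and all genes on each of the 4 arrays (horizontal axis). The regulators lie at -0.12 to -0.07 on every array, while the linkers lie near 0 on arrays 1 and 2 and at -0.24 and -0.14 on arrays 3 and 4.

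The medians of the classes differed by less than the arrays did. The median log2 ratio was -0.10 over the 23 linkers and -0.07 over the 33 regulators, against 0.0050 over all genes. On arrays 1 to 4 the median of the linkers was -0.01, -0.01, -0.24 and -0.14, and that of the regulators was -0.07, -0.08, -0.12 and -0.09. The difference, linkers minus regulators, was 0.06, 0.06, -0.12 and -0.04, with an SD of 0.09 over the arrays. It had the opposite sign in the 2 dye orientations, so that no order of the class medians held on every array. The share called lower was higher among the linkers, at 34.8%, than among the regulators, at 15.2%, and this difference was not tested. With normexp background correction and loess, 3 of the 23 linkers and 6 of the 33 regulators were called lower. The order of the shares therefore depended on the processing. Within the linkers, the zyxin family and PDZ-LIM genes had the lowest median, at -0.23, and lay at -0.33 to -0.18 on every array. Among the regulators as counted here, without Ezr, the crosslinkers had the lowest median, at -0.32. The 2 tested ERM genes had -0.24, and Ezr, given apart, had -0.94. With Ezr the middle ERM value is that of Msn, -0.37, so the lowest rank depends on leaving Ezr out. The Ena/VASP proteins had the highest median, at 0.29 over 3 genes, with 0.28, 0.27, 0.36 and -0.10 on arrays 1 to 4. Enah had no usable value on array 4.

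Other genes of the same pathways moved in both directions. Of 118 tested, 13 were higher and 18 lower, with a median log2 ratio of -0.05. Of all genes, 13.8% were called higher and 12.5% lower, so these counts lay near the rate of the whole array. Among 31 other adhesion proteins, 5 were higher and 5 lower. Pdlim4, encoding the PDZ-LIM protein RIL, had 1.00 (SE 0.07, 2.00 fold higher, adjusted p = 0.00141, limma), in the opposite direction to Pdlim5, while Pdlim2, a further PDZ-LIM gene, was lower at -0.34 (SE 0.07, adjusted p = 0.0233, limma). Csrp2, encoding a LIM protein of smooth muscle, had 0.61 (SE 0.05, adjusted p = 0.00274, limma), and the integrin-signalling genes Arhgef7 and Nedd9 had 0.41 and 0.40. The vinexin relative Sorbs2 was lower at -1.46 (SE 0.14, adjusted p = 0.00361, limma), whereas the member Sorbs3, vinexin itself, had -0.0026. Bcar3, which binds p130Cas, had -1.19 (SE 0.07, adjusted p = 0.00131, limma), in the same direction as Bcar1, and the zyxin relative Ajuba had -0.47.

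Among 56 other actin regulators, 6 were higher and 7 lower, against 13.8% and 12.5% of all genes. The lower ones were led by the bundling protein gene Pls1, at -1.46 (SE 0.09, adjusted p = 0.00116, limma), an uncertain size since its signal in STMN1-/- MEFs stood well above background on 1 of 4 arrays, and by Eps8 (-0.62), Anln (-0.57) and the formin gene Diaph3 (-0.46), for capping, cytokinesis and filament elongation. The higher ones were led by Actn3 (0.59), the formin gene Daam2 (0.57), Ablim1 (0.56) and Svil (0.38). Of the called genes of the other lists named here, Pdlim4, Csrp2, Nedd9, Sorbs2, Bcar3, Pls1, Eps8, Anln, Diaph3 and Daam2 passed without any 1 of the arrays, and the rest failed without at least 1 of them.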

How the data were processed

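Signals came from 4 scanner files, 1 per array. Per the file headers, their intensity values are processed signals of Agilent Feature Extraction 9.5.3.1, which subtracted the background, normalized the dyes on each array and set dim spots to a surrogate value. The deposited log10 values in those files are the Cy5 over Cy3 ratios from the same program. The deposited log2 values are in lists that the authors made in GeneSpring GX, hold only the probes listed there, and correlated at 0.999876 with the mean ratios of the scanner files. Coordinates are those of build mm7.

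Of 45018 spots, 1486 positive and 153 negative controls were left out, as were outlier spots (472 to 711 per array), and spots of a probe were averaged. Array medians of the log2 ratio were -0.01 to 0.00, and no further normalization was applied. Probes that stood well above background in a channel of any array were kept (27759 of 41174), and 27648 with values on at least 2 arrays entered a two-sided limma test of the mean log2 ratio against 0 (limma 3.58.1, R 4.3.3, Benjamini-Hochberg adjustment), with the package data.table (version 1.17.8). The procedure was tested on simulated data with independent noise on each array. The simulation held no dye effect, so it does not bear on the differences between dye orientations in these data. Tables and figures used Python 3.11.15, pandas 2.3.3, numpy 2.4.6 and matplotlib 3.10.9. Genes outside the member list were named by current symbol (24524 probes), RefSeq accession (5084) or a synonym of 1 gene (3108), and 8458 probes stayed unnamed. All genes, as the background, are those whose array name is a current RefSeq symbol.

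The members and lists were chosen with earlier results of these data known. Values on every array are given for called members with a change of at least 1.4 fold, for the called member with the largest change in each subgroup, and for others where a comparison turns on them. Members that were not called are named as paralogs or partners of called ones, or as the largest such change of a class, and up to 4 called genes in each direction for each other list. Some genes of these lists are counted and not reported here by name. Fyn, Src, Zyx, Ptk2b, Fscn1, Pdlim2, Trip6, Limd1, Pdlim3, Ldb3 and the members split by dye were picked with their values in view. Alternative settings were each array left out in turn, loess after normexp (offset 50), the log10 column, centring on array medians, scaling, dim probes kept, a stricter demand for signals above background on all 4 arrays in both channels, outlier spots retained, a coefficient for the dye, averages of dye-swapped pairs (both pairings), the methods' t-test, the median of a gene's probes, and the deposited lists. No probe cross-matches were analysed here, since no genome sequence was used.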

Additional observations from a re-analysis of the deposited data

Results flagged for a closer look

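The lowest array of Ptk2b stood apart from the other 3: its log2 ratio was -0.28 on array 3, and the gap to the next value was 0.885 of the range over the arrays. The range itself was narrow. This was the only such array among the 52 members with 4 arrays, and chance flags about 1 in 20 groups.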

How the results depend on the processing

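All 17 called members kept their direction under every alternative run, and Pdlim5 and Cfl2 also kept their call wherever a test was run. With normexp and loess Parvb moved to -0.49 and Ptk2b to -0.12. Against 3 adhesion linkers and 1 actin regulator called higher and 8 linkers and 5 regulators called lower, leaving out 1 array at a time gave 0 to 1 linkers and 0 regulators higher and 1 to 3 linkers and 1 to 2 regulators lower, with 5 to 7 other pathway genes higher and 8 to 11 lower (13 and 18 with all arrays), and a median log2 ratio of the regulators of -0.071 to -0.032 (-0.032 without replicate 3). With normexp and loess, 3 linkers and 6 regulators were lower, 0 regulators higher, and 5 other pathway genes higher and 8 lower. With no filter on dim probes, 3 linkers and 3 regulators were lower, 0 regulators higher and 9 other pathway genes lower. The methods' t-test called 4 linkers and 3 regulators lower and 2 regulators higher. With a coefficient for the dye, 7 regulators were higher and 10 lower, and 25 other pathway genes were higher and 35 lower. Averaging the dye-swapped arrays, 1 with 3 and 2 with 4, left 5 linkers lower and 3 regulators higher, and 1 with 4 and 2 with 3 left 5 linkers lower, 4 regulators higher and 20 other pathway genes higher. Regulators called higher numbered 2 with signals well above background on all arrays, 2 with outlier spots kept, and 2 with the median over the probes of a gene, which also left 1 linker higher. The other counts stayed within 1.5 times. Of the 39 members that were not called, 10 had the other sign under some alternative. Causes were not tested, except that fewer arrays leave fewer degrees of freedom. The test of log2 ratios against 0 is already paired by array, because each array holds both genotypes and each log2 ratio is itself a pair.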
